A study of Mus musculus with 12 samples.

Results

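A set of 10 genes linked to epithelial injury and squamous repair was followed in mouse lung: Sprr1a, Tgm1, Krt7, Krt8, Krt18, Krt19, Cldn4, Prss22, Tnfrsf12a and Sfn. They were taken by name, as every probe set of the array annotated with exactly 1 of these symbols. This gave 13 of 45101 probe sets and 10 of 17569 genes tested, and all 13 probe sets passed the filter on low signals. Krt8 had 3 probe sets, Tnfrsf12a had 2 and each of the other 8 genes had 1. A gene with several was represented by its brightest one.

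RNA of lung tissue of male mice, 6 to 8 weeks old, was hybridised to 12 arrays. These are taken here as 1 array per mouse, which the methods of the study do not state. Nfkb1KO-O3 and Nfkb1KO-Air lungs came from Nfkb1-deficient mice on a mixed background, in which a whole-body deletion removes the NF-κB subunit p50/p105, after 48 h of continuous 0.3 ppm O3 or in filtered air. WT-O3 and WT-Air lungs came from B6129PF2/J mice with the same exposures, and each group held 3 arrays. The wild-type mice were a purchased strain and not stated to be littermates, so that the deletion and the strain background cannot be told apart, and air and O3 mice were kept in separate chambers, so that chamber and exposure cannot be told apart. No probe set was annotated for Nfkb1 (0 in the annotation table), and its level was not analysed here.

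Simple epithelia such as those of the airway and alveolus are built on the keratins Krt7, Krt8, Krt18 and Krt19, whereas stratified squamous epithelia make a cornified envelope, a protein layer under the cell membrane that transglutaminases cross-link. Injured lung epithelium is known to raise simple keratins and to pass through a flattened, Krt8-high state on the way to type I alveolar cells, and persistent irritation of airways can lead to squamous metaplasia. NF-κB and AP-1 are families of transcription factors that respond to stress and cytokines.

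Of the 12 arrays, 2 stood furthest apart. Nfkb1KO-Air replicate 1 had a median deposited signal of 180.1, against 99.14 to 121.2 in the other 11 arrays, and its rank correlation with them was 0.915 to 0.93, against 0.947 to 0.969 among the others. The summed signal of 10 skeletal muscle markers was 38590 in WT-Air replicate 3. It spanned 639.9 to 9419 over the Nfkb1KO-O3 arrays, 1476 to 2232 over Nfkb1KO-Air and 625.5 to 1157 over WT-O3. The value of 9419 was that of Nfkb1KO-O3 replicate 2. A fit without Nfkb1KO-Air replicate 1 and WT-Air replicate 3 kept that array. It gave counts of members called of 6 for O3 in Nfkb1KO, 9 for O3 in WT, 1 for genotype after O3 and 0 for genotype in air. Control probe sets differed by exposure. The log2 signal of the poly-A controls, transcripts added to the RNA, averaged 8.42 ± 0.25 in O3 arrays and 8.80 ± 0.21 in air arrays (SD, n = 6 each, exact permutation p = 0.013, two-sided), that of the hybridisation controls 11.43 ± 0.05 in O3 arrays and 11.66 ± 0.10 in air arrays (exact p = 0.0043), and the log2 ratio of the 3′ to the 5′ probe set of Gapdh, a transcript of the tissue itself and a sign of RNA quality, -0.50 ± 0.07 in O3 arrays and -0.22 ± 0.10 in air arrays (exact p = 0.0022). Their part in the O3 comparisons was not tested.

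Windows around the transcription start of the genes were searched on both strands for 2 motifs, AP-1 (TGANTCA) and an NF-κB pattern (GGGRNNYYCC). In these R is A or G, Y is C or T and N is any base. The NF-κB pattern is looser than the consensus GGGRNYYYCC that the study searched for. Windows of 300 bases, most of it before the start and the rest after it (RefSeq, GRCm38.p6), were at hand for 8 of the 10 genes, with 9 windows in all, and not for Krt19 and Prss22. AP-1 matches lay before Sprr1a and Cldn4, 2 in each, and 1 NF-κB match lay before Krt18. Read on the other strand, the Krt18 match also fits GGGRNYYYCC. At least 1 AP-1 match was found in 7.81% of 32851 windows of this length and at least 2 matches in 0.46%, and an NF-κB match in 8.46%. A match is a description of the letters only. The stretches are shown 5′ to 3′ on the strand of the gene, with the matches in capitals, for every gene of the set that had a match.
Sprr1a, chr3:92485882-92486131, minus strand, matches 146 to 140 and 116 to 110 bases before the start: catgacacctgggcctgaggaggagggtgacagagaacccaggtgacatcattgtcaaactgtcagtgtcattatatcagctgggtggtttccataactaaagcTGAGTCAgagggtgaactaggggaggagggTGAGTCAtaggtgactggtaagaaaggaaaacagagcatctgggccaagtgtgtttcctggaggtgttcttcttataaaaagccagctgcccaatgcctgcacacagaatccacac
Cldn4, chr5:134946935-134947184, minus strand, matches 240 to 234 and 158 to 152 bases before the start: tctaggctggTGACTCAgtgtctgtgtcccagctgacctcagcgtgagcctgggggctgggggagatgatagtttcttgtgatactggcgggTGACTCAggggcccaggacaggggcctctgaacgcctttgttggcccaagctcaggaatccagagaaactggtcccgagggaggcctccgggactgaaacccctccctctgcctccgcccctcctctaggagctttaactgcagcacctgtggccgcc
Krt18, chr15:102028136-102028215, plus strand, match 47 to 38 bases before the start: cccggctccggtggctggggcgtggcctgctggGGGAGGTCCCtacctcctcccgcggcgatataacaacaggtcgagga

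O3 raised most of the set in both genotypes. Of the 10 genes, 7 rose in Nfkb1KO-O3 against Nfkb1KO-Air and 9 rose in WT-O3 against WT-Air (limma, adjusted p under 0.05 over all genes tested). Among all genes, 3.35% rose in Nfkb1KO and 3.16% in WT. The members were chosen with earlier results of these data known, so these shares describe the set and do not test it. The median log2 difference of the set was 1.24 in Nfkb1KO (range 0.32 to 2.54) and 1.64 in WT (range 0.72 to 4.59), beside medians over all genes of -0.01 in Nfkb1KO and -0.03 in WT. For all 10 genes the 3 O3 arrays lay above the 3 air arrays in both genotypes, which held for 13.1% of all genes in Nfkb1KO and for 13.5% in WT. In RNA of lung tissue a rise in the number of cells that carry a transcript cannot be told apart from more transcript per cell. Signals are given below on the log2 scale after quantile normalisation, and probe sets of different genes are not compared in level.

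**Figure D1:**
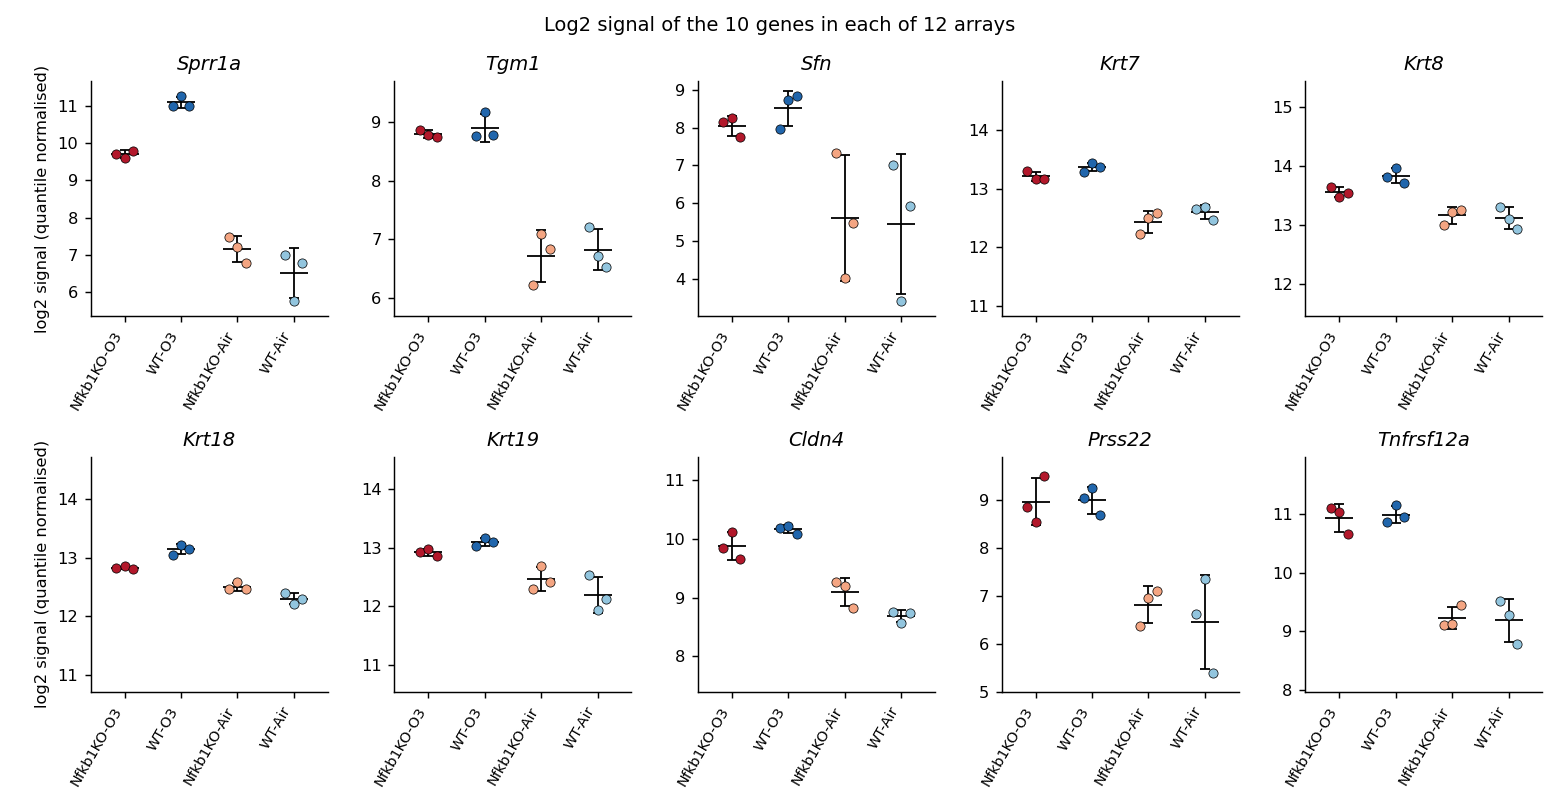
Log2 signal (vertical axis, quantile normalised) of each gene in each of the 12 arrays, by group. Points are arrays, the long bar is the mean and the whiskers are 1 SD (n = 3). Each gene's O3 arrays lie above its air arrays in both genotypes, and Sprr1a in Nfkb1KO-O3 (9.59 to 9.80) lies below WT-O3 (11.01 to 11.27).

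Among genes of squamous differentiation, Sprr1a had the largest fitted change of the set in WT. It encodes a small proline-rich protein, a substrate for cross-linking into the cornified envelope. Its log2 signal was 9.71, 9.59 and 9.80 in Nfkb1KO-O3, against 7.48, 7.22 and 6.79 in Nfkb1KO-Air. In WT-O3 it was 11.01, 11.27 and 11.01, against 6.99, 5.75 and 6.79 in WT-Air. Every O3 array lay far above every air array, and the Nfkb1KO-O3 arrays formed a level of their own between WT-O3 and the air arrays. The rise was 5.79-fold in Nfkb1KO (log2 2.54 ± 0.28 SE, limma adjusted p = 0.000926) and 24.0-fold in WT (log2 4.59 ± 0.28, limma adjusted p = 1.05e-05).

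Tgm1 encodes transglutaminase 1, the membrane-bound enzyme that cross-links envelope proteins. It read 8.87, 8.77 and 8.74 in Nfkb1KO-O3, against 6.22, 7.09 and 6.84 in Nfkb1KO-Air. It read 8.76, 9.17 and 8.77 in WT-O3, against 7.22, 6.72 and 6.54 in WT-Air. The O3 arrays of the genotypes overlapped, as did the air arrays. Tgm1 rose 4.22-fold in Nfkb1KO (log2 2.08 ± 0.25, limma adjusted p = 0.00108) and 4.19-fold in WT (log2 2.07 ± 0.25, limma adjusted p = 0.000848).

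Sfn encodes stratifin, the 14-3-3 sigma protein of stratified epithelia, which is also a target of p53. It read 8.14, 8.25 and 7.75 in Nfkb1KO-O3, against 7.34, 4.03 and 5.47 in Nfkb1KO-Air. In WT-O3 it read 7.97, 8.72 and 8.83, against 6.997, 3.42 and 5.94 in WT-Air. Replicate 2 of each air group lay below the lower limit of 4.37, the 20th percentile of the normalised values, and the air arrays spread widely (SD 1.66 in Nfkb1KO-Air and 1.84 in WT-Air). With those arrays raised to the limit, the difference was at least 5.0-fold in Nfkb1KO and at least 6.66-fold in WT. These values rested on single air arrays. The log2 difference was 2.44 in Nfkb1KO and 1.64 without Nfkb1KO-Air replicate 2 or 3.37 without replicate 1, and it was 3.05 in WT and 2.03 without WT-Air replicate 2 or 3.80 without replicate 1. Sfn was not called (limma adjusted p = 0.112 in Nfkb1KO and 0.0571 in WT). The WT difference passed the threshold without Nfkb1KO-Air replicate 1 (limma adjusted p = 0.0279), without Nfkb1KO-Air replicate 2 (0.0385) or without WT-Air replicate 1 (0.033), and the Nfkb1KO difference without WT-Air replicate 2 (0.0456).

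The simple keratins showed smaller changes. Krt7, a type II keratin of simple and glandular epithelia, read 13.30, 13.17 and 13.16 in Nfkb1KO-O3, against 12.23, 12.50 and 12.59 in Nfkb1KO-Air. It read 13.29, 13.43 and 13.37 in WT-O3, against 12.65, 12.68 and 12.46 in WT-Air. Krt7 rose 1.71-fold in Nfkb1KO (log2 0.77 ± 0.10, limma adjusted p = 0.00126) and 1.70-fold in WT (log2 0.77 ± 0.10, limma adjusted p = 0.00122), and the O3 arrays of the genotypes overlapped.

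Krt8, the type II partner of Krt18, read 13.65, 13.48 and 13.54 in Nfkb1KO-O3, against 12.996, 13.23 and 13.26 in Nfkb1KO-Air. In WT-O3 it read 13.82, 13.97 and 13.72, against 13.31, 13.11 and 12.93 in WT-Air. All Nfkb1KO-O3 arrays lay above the air arrays and below the WT-O3 arrays. Krt8 rose 1.65-fold in WT (log2 0.72 ± 0.11, limma adjusted p = 0.00353), and the difference in Nfkb1KO was 1.31-fold (log2 0.39 ± 0.11) and missed the threshold (limma adjusted p = 0.0503). The other Krt8 probe sets, in a fit over 33386 probe sets, were called in Nfkb1KO at log2 0.52 ± 0.08 (limma adjusted p = 0.00551) and 0.40 ± 0.10 (0.0342), and in WT at 0.91 ± 0.08 (0.000295) and 0.80 ± 0.10 (0.00101), so that the Krt8 call in Nfkb1KO rested on the choice of probe set. The call was also made without WT-Air replicate 1 (limma adjusted p = 0.0358) or without WT-Air replicate 3 (0.0364).

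Krt18, the type I keratin that pairs with Krt8 into filaments, read 12.82, 12.85 and 12.81 in Nfkb1KO-O3, against 12.46, 12.58 and 12.46 in Nfkb1KO-Air. It read 13.05, 13.22 and 13.15 in WT-O3, against 12.39, 12.21 and 12.30 in WT-Air. The 4 groups did not overlap at any point. Krt18 rose 1.25-fold in Nfkb1KO (log2 0.32 ± 0.07, limma adjusted p = 0.0222) and 1.80-fold in WT (log2 0.85 ± 0.07, limma adjusted p = 9.92e-05). The call in Nfkb1KO was lost without Nfkb1KO-O3 replicate 1 (limma adjusted p = 0.0744), replicate 2 (0.0589) or replicate 3 (0.0539), and without Nfkb1KO-Air replicate 1 (0.0702) or replicate 3 (0.0686). It was also lost when only the groups of the comparison were fitted (0.0677), and with arrays centred on their medians the difference was log2 0.80 (0.0981).

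Krt19, a type I keratin of duct and airway epithelium, read 12.92, 12.98 and 12.86 in Nfkb1KO-O3, against 12.29, 12.69 and 12.41 in Nfkb1KO-Air. It read 13.02, 13.16 and 13.10 in WT-O3, against 12.53, 11.93 and 12.12 in WT-Air. The O3 arrays were close together and the air arrays were not. Krt19 rose 1.86-fold in WT (log2 0.90 ± 0.14, limma adjusted p = 0.00378), and the difference in Nfkb1KO was 1.37-fold (log2 0.45 ± 0.14) without a call (limma adjusted p = 0.0697). It was called without Nfkb1KO-Air replicate 2 (limma adjusted p = 0.0364), without WT-Air replicate 1 (0.0257) or without WT-Air replicate 2 (0.0434). When arrays were centred on their medians in place of quantile normalisation, the WT differences of Krt7 (log2 0.80, limma adjusted p = 0.285), Krt8 (0.75, 0.349), Krt18 (0.89, 0.141) and Krt19 (0.95, 0.189) were not called, and 5 of the 10 genes were called in WT. The Krt19 difference in Nfkb1KO was then 0.93 (0.0946).

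Genes of the cell surface and junctions also rose. Cldn4 encodes claudin 4, a sealing protein of tight junctions. It read 9.84, 10.12 and 9.65 in Nfkb1KO-O3, against 9.26, 9.19 and 8.82 in Nfkb1KO-Air. In WT-O3 it read 10.19, 10.22 and 10.08, against 8.75, 8.57 and 8.73 in WT-Air. The O3 arrays of the genotypes overlapped, and in air every Nfkb1KO array lay above every WT array. Cldn4 rose 1.72-fold in Nfkb1KO (log2 0.78 ± 0.14, limma adjusted p = 0.00885) and 2.80-fold in WT (log2 1.48 ± 0.14, limma adjusted p = 0.000304). The call in Nfkb1KO was lost when only the groups of the comparison were fitted (limma adjusted p = 0.0569).

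Prss22 encodes tryptase epsilon, a serine protease secreted by airway epithelium. It read 8.84, 8.54 and 9.49 in Nfkb1KO-O3, against 6.37, 6.96 and 7.10 in Nfkb1KO-Air. It read 9.03, 9.24 and 8.68 in WT-O3, against 6.61, 7.35 and 5.40 in WT-Air. The O3 arrays of the genotypes overlapped, and the WT-Air arrays spread most (SD 0.98). Prss22 rose 4.43-fold in Nfkb1KO (log2 2.15 ± 0.42, limma adjusted p = 0.011) and 5.78-fold in WT (log2 2.53 ± 0.42, limma adjusted p = 0.0049).

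Tnfrsf12a encodes Fn14, the receptor for the cytokine Tweak, which is induced by growth factors and injury. It read 11.10, 11.03 and 10.66 in Nfkb1KO-O3, against 9.11, 9.13 and 9.45 in Nfkb1KO-Air. It read 10.86, 11.15 and 10.95 in WT-O3, against 9.51, 9.27 and 8.79 in WT-Air. Neither the O3 arrays nor the air arrays separated the genotypes. Tnfrsf12a rose 3.25-fold in Nfkb1KO (log2 1.70 ± 0.18, limma adjusted p = 0.000926) and 3.49-fold in WT (log2 1.80 ± 0.18, limma adjusted p = 0.000334), and its other probe set rose by log2 1.78 ± 0.22 in Nfkb1KO (limma adjusted p = 0.00145) and 1.66 ± 0.22 in WT (0.00178).

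**Figure D2:**
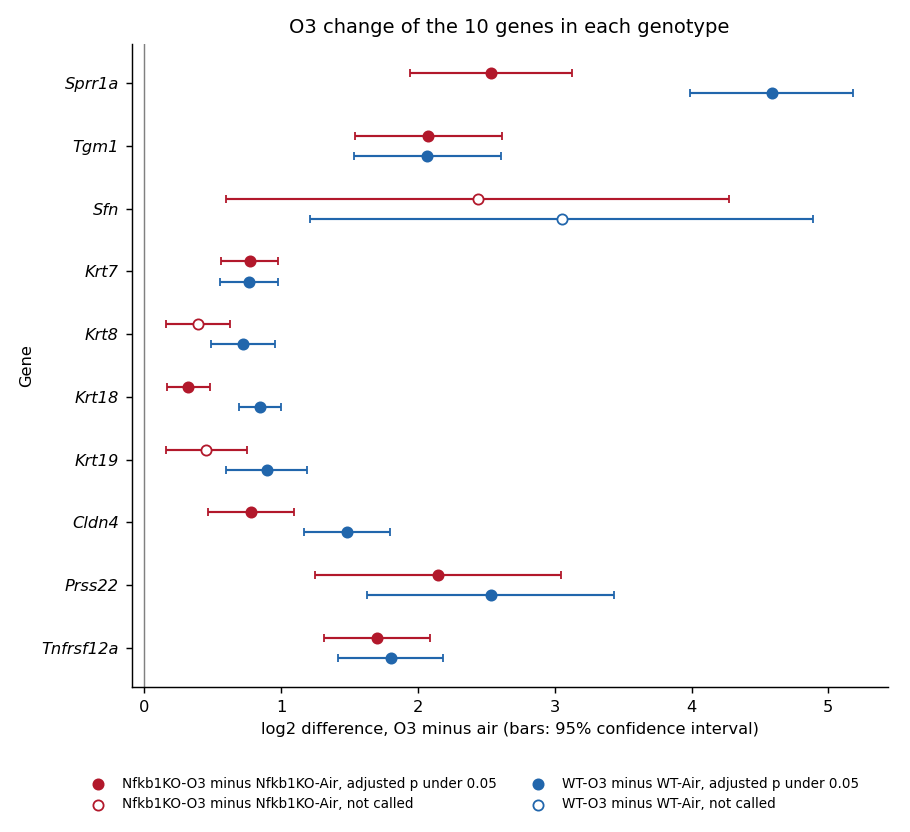
Log2 difference, O3 minus air (horizontal axis), of each gene in Nfkb1KO and in WT, with 95% confidence intervals. Filled points passed an adjusted p of 0.05 over all genes tested. The intervals of Sprr1a (1.94 to 3.13 in Nfkb1KO and 3.99 to 5.18 in WT) do not meet, while those of Tgm1 and Krt7 lie over each other.

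The genes shared an order of arrays in some groups and only in part. WT-O3 replicate 2 was the highest of its group for 9 of the 10 genes and replicate 1 the lowest for 7. WT-Air replicate 1 was the highest for 8. Nfkb1KO-O3 replicate 3 was the lowest for 7, and Nfkb1KO-Air replicate 1, which stood apart from the other arrays, was the lowest for 7 and the highest for 3. The highest array was not shared in Nfkb1KO-O3 (4, 4 and 2 genes for replicates 1, 2 and 3) or in Nfkb1KO-Air (3, 3 and 4). In WT-Air, replicates 2 and 3 were each the lowest for 5. The same counts over all genes were not taken, so a shift of whole arrays cannot be told apart.

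After O3, 1 of the 10 genes was called between genotypes. Sprr1a stood 2.63-fold lower in Nfkb1KO-O3 (log2 -1.40 ± 0.28, 95% interval -1.99 to -0.80, limma adjusted p = 0.0355), and 0.171% of all genes were called lower. All 10 differences were negative (median -0.23, range -1.40 to -0.03), although centring the arrays on their medians put the median at -0.11 and the highest at 0.02. For 4 genes, Sprr1a, Krt8, Krt18 and Krt19, all Nfkb1KO-O3 arrays lay below all WT-O3 arrays, which held for 9.76% of all genes. Besides Sprr1a, 2 genes had an unadjusted p under 0.05 without a call, where 1657 of all 17569 genes had such a p. The first was Krt18 at log2 -0.32 ± 0.07 (limma adjusted p = 0.0791), and the other was Krt8 at -0.28 ± 0.11 (limma adjusted p = 0.386). With centring they were -0.20 for Krt18 and -0.15 for Krt8. The other Krt8 probe sets differed by -0.32 ± 0.08 and -0.28 ± 0.10 and were not called. Among leukocyte markers, Tyrobp (log2 0.86 ± 0.14, limma adjusted p = 0.0144) and Fcer1g (1.05 ± 0.20, 0.0324) were called higher in Nfkb1KO-O3, as were 0.552% of all genes. The summed signal of the 7 leukocyte markers was 13550 to 21270 in Nfkb1KO-O3 and 12070 to 14190 in WT-O3. In air the sum was 20350 to 22440 in Nfkb1KO-Air and 12860 to 21980 in WT-Air. All 7 markers were higher in Nfkb1KO both in air (median log2 difference 0.33, 0 called by limma) and after O3 (median 0.39). The part of these markers in the lower level of Sprr1a was not tested.

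The call of Sprr1a after O3 was not stable. It was lost without Nfkb1KO-O3 replicate 1 (limma adjusted p = 0.155), replicate 2 (0.129) or replicate 3 (0.0892), without WT-O3 replicate 1 (0.1), replicate 2 (0.181) or replicate 3 (0.117), and without Nfkb1KO-Air replicate 2 (0.054). The log2 difference itself stayed between -1.44 and -1.31 in these and the other fits that left out an array. With the deposited scaling alone the adjusted p was 0.0783.

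In air the fitted genotype differences of the genes ran from log2 -0.16 to 0.66. Some intervals were wide, such as -1.68 to 1.99 for Sfn. Of the 10 genes 0 were called by limma, while 0.342% of all genes were called in either direction. An unadjusted p under 0.05 was found for 1986 of all 17569 genes and for 3 of the 10. These were Sprr1a (log2 0.66 ± 0.28 in Nfkb1KO-Air over WT-Air, limma adjusted p = 0.39), Krt18 (0.21 ± 0.07, 0.3) and Cldn4 (0.41 ± 0.14, 0.309). In 2 genes, Krt18 and Cldn4, all Nfkb1KO-Air arrays lay above all WT-Air arrays, as did 6.63% of all genes. The set had a median difference of 0.18. Centring the arrays on their medians turned it to -0.05, where the median over all genes was -0.20 and the Krt18 difference turned to -0.10.

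Whether O3 acted differently in the genotypes was asked with the interaction, the O3 change in Nfkb1KO minus that in WT. Of the 10 genes 0 were called by limma, beside 0.0342% of all genes. An unadjusted p under 0.05 was found for 4 of the 10 and for 1065 of all 17569 genes. The fitted interaction of Sprr1a was -2.05 ± 0.39 on the log2 scale (95% interval -2.89 to -1.21, limma adjusted p = 0.172). Krt18 had an interaction of -0.52 ± 0.10 (interval -0.75 to -0.30, limma adjusted p = 0.196), Cldn4 of -0.70 ± 0.20 (-1.15 to -0.26, 0.645) and Krt19 of -0.44 ± 0.19 (-0.86 to -0.03, 0.81). With arrays centred on their medians, where the median over all genes was 0.25, the interaction was -1.95 for Sprr1a, -0.10 for Krt18, -0.45 for Cldn4 and -0.02 for Krt19. Krt8 lay at -0.33 (adjusted p = 0.81 by limma), and its other probe sets at -0.38 ± 0.12 (0.887) and -0.40 ± 0.14 (0.914), with intervals of -0.64 to -0.13 and -0.69 to -0.10. Tgm1 and Krt7 lay at 0.01, with intervals of -0.75 to 0.77 for Tgm1 and -0.29 to 0.30 for Krt7. The interval of Tnfrsf12a was -0.65 to 0.45, that of Prss22 -1.66 to 0.89 and that of Sfn -3.21 to 1.99, the widest of the set.

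**Figure D3:**
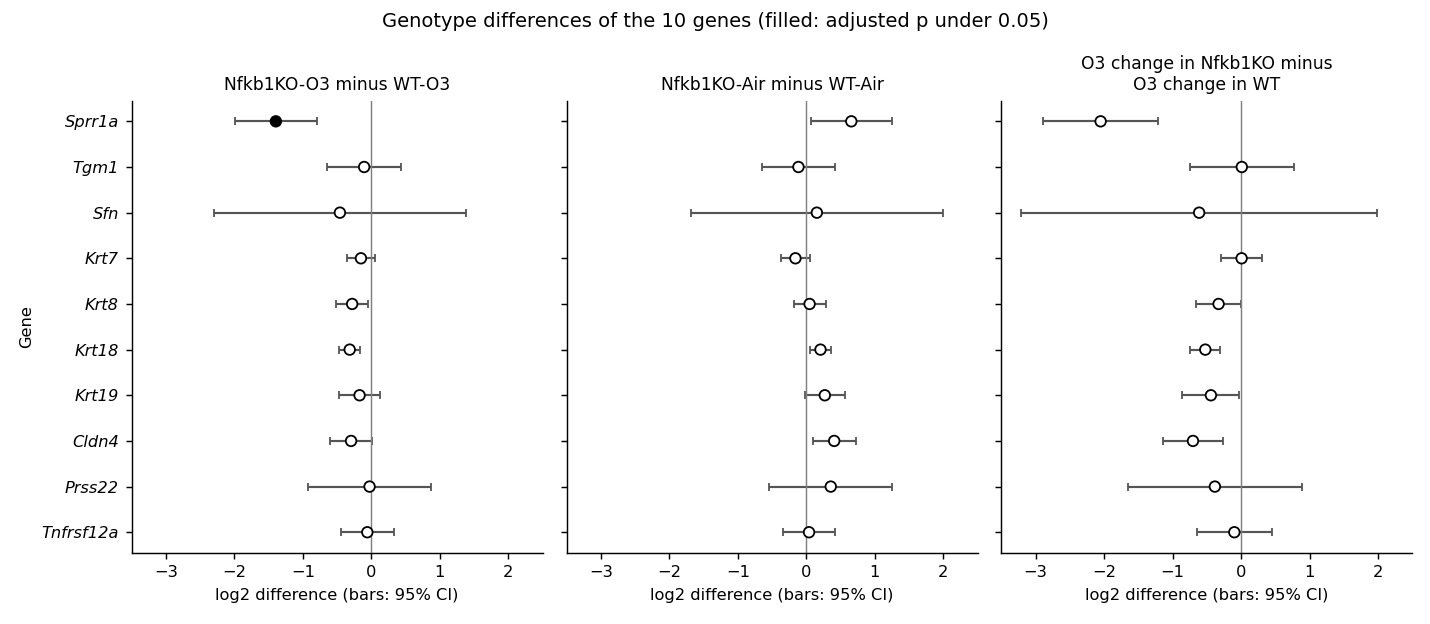
Log2 differences (horizontal axis) of each gene between genotypes after O3, in air, and in the O3 change, with 95% confidence intervals. The filled point, Sprr1a after O3 (-1.40), is the only one called.

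Genes most like Sprr1a and Krt8 over the arrays were sought outside the set. The search covered only genes whose mean signal was above that of the median gene. Likeness was measured as the root mean square difference over the 12 arrays, after the WT-Air mean of each gene was taken off. Nearest to Sprr1a were Timp1, an inhibitor of matrix metalloproteinases, at 0.92, Ccl17 at 1.40 and F3, tissue factor, at 1.45. Nearest to Krt8 were Anxa1, annexin A1, at 0.10, Pwp1 at 0.11 and Gnl3 at 0.11. Timp1 changed by log2 2.74 in Nfkb1KO and 3.17 in WT, against 2.54 in Nfkb1KO and 4.59 in WT for Sprr1a. Anxa1 changed by 0.31 in Nfkb1KO and 0.58 in WT.

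Among related genes, the wider cornified envelope list did not move as a body. Of 24 measured genes, 2 rose in Nfkb1KO and 4 in WT, with medians of -0.12 in Nfkb1KO and 0.23 in WT. S100a14, a calcium-binding protein of epithelia, rose by log2 1.65 ± 0.33 in Nfkb1KO (limma adjusted p = 0.0125) and 1.76 ± 0.33 in WT (0.00965), and Ppl, periplakin, by 0.41 ± 0.11 in Nfkb1KO and 0.49 ± 0.11 in WT. Anxa1 (0.58 ± 0.09) and Cstb, cystatin B (0.31 ± 0.07), rose in WT. Of the listed genes 11, among them Sprr2d, Sprr3, Krt13 and Krt16, lay at or below the lower limit in some arrays. The 6 other transglutaminases measured had 0 calls by limma in either genotype, and 1 in Nfkb1KO and 0 in WT had an unadjusted p under 0.05. Over all 17569 genes such a p was found for 3770 in Nfkb1KO and 3458 in WT, the background for the list counts below.

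Genes of the Krt8-high alveolar transitional state gave more calls. Of 23 measured, 8 rose and 3 fell in Nfkb1KO, and 9 rose and 1 fell in WT, where 2.83% of all genes fell in Nfkb1KO and 2.24% in WT. The medians were 0.21 in Nfkb1KO and 0.45 in WT. F3 had log2 signals of 12.36 to 12.46 in Nfkb1KO-O3, against 10.51 to 10.97 in Nfkb1KO-Air, and of 12.19 to 12.56 in WT-O3, against 9.86 to 10.81 in WT-Air. It rose by 1.62 ± 0.20 in Nfkb1KO (limma adjusted p = 0.00108) and 2.03 ± 0.20 in WT (0.000304). Hbegf, which activates the epidermal growth factor receptor, rose by 1.16 ± 0.15 in Nfkb1KO and 1.35 ± 0.15 in WT. Anxa3 rose by 0.70 ± 0.10 in Nfkb1KO and 0.90 ± 0.10 in WT, Tnc, the matrix protein tenascin C, by 1.81 ± 0.30 in Nfkb1KO and 1.91 ± 0.30 in WT, and Ccn2, connective tissue growth factor, by 1.05 ± 0.17 in Nfkb1KO and 0.82 ± 0.17 in WT. Ecm1 fell by 0.33 in Nfkb1KO and by 0.37 in WT, and Ccnd1 (-0.63 ± 0.13) and Sox4 (-0.66 ± 0.14) fell in Nfkb1KO.

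Some junction genes beside Cldn4 also rose. Of 16 tight junction genes, 2 rose in Nfkb1KO and 3 in WT (4 in Nfkb1KO and 5 in WT had an unadjusted p under 0.05). Cgn, cingulin, rose by log2 0.53 ± 0.11 in Nfkb1KO and 0.76 ± 0.11 in WT. Cldn12 rose by 0.40 ± 0.10 in Nfkb1KO and had a difference of 0.27 ± 0.10 in WT. Marveld3 (0.68 ± 0.17) and Cldn2 (1.27 ± 0.34) rose in WT, with differences of 0.35 ± 0.17 for Marveld3 and -0.02 ± 0.34 for Cldn2 in Nfkb1KO. Of 8 desmosome genes, Jup, plakoglobin, fell by 0.39 in Nfkb1KO, and by limma 0 were called in WT, where 1 had an unadjusted p under 0.05. Of 3 other simple keratins, Krt23 fell by 0.60 in Nfkb1KO.

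Relatives of the other members gave few calls. Of 13 epithelial serine proteases and inhibitors, Spint2 fell by log2 0.31 in Nfkb1KO, and in WT Tmprss4 rose by 0.87 ± 0.22 and Tmprss2 fell by 0.42. The 10 measured genes of the Tweak receptor pathway and the 6 other 14-3-3 genes had 0 calls by limma in either genotype. An unadjusted p under 0.05 was seen for 3 Tweak pathway genes in Nfkb1KO and 0 in WT, and for 0 of the 14-3-3 genes in Nfkb1KO and 2 in WT. Of 14 p53 targets, Cdkn1a, the cell cycle inhibitor p21, rose by 1.37 ± 0.30 and Aen by 0.54 ± 0.13 in Nfkb1KO, and Pmaip1 rose by 0.94 ± 0.24 in WT. In these 10 lists, 116 genes in all, 0 were called by limma for genotype after O3 or for the interaction. An unadjusted p under 0.05 was found for 15 after O3, beside 1657 of all 17569 genes. For the interaction it was found for 11, beside 1065 of all genes. Cldn2 was called for genotype in air (log2 1.89 ± 0.34, limma adjusted p = 0.0366).

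**Figure D4:**
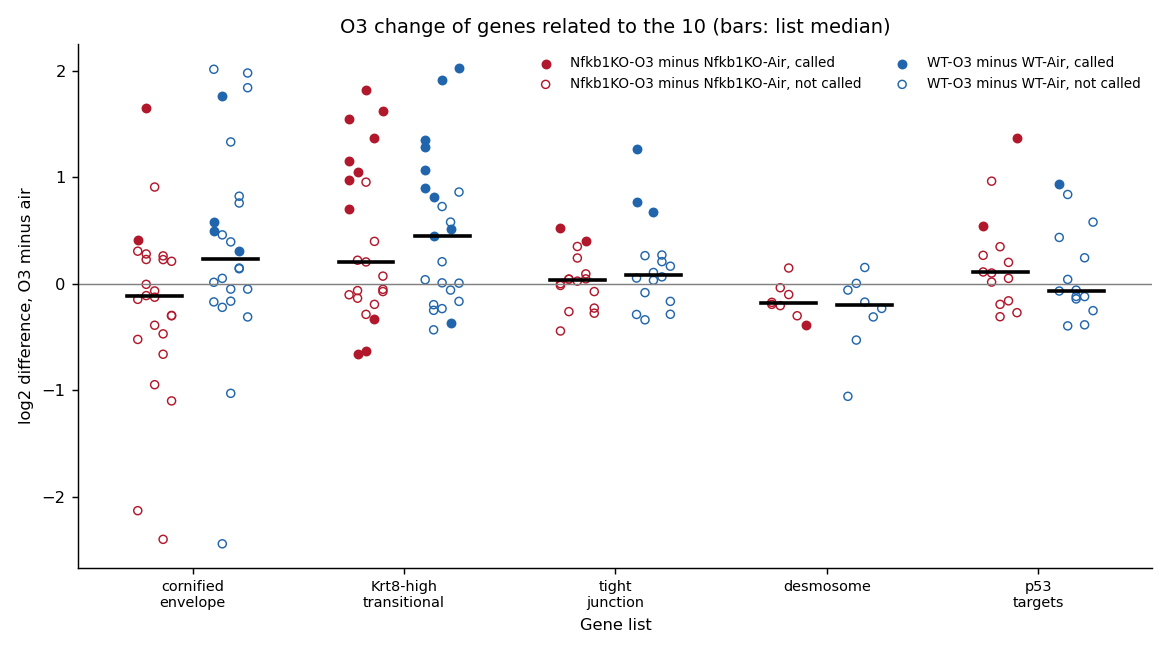
Log2 difference, O3 minus air (vertical axis), of genes in 5 lists related to the 10 genes, in Nfkb1KO and in WT. Points are genes (filled where the adjusted p was under 0.05) and bars are list medians, which reach 0.21 in Nfkb1KO and 0.45 in WT for the Krt8-high transitional list.

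General epithelial markers were set beside the 10 genes. The 8 pan-epithelial markers had 0 calls by limma in either genotype, with 3 at an unadjusted p under 0.05 in each and median log2 differences of -0.18 in Nfkb1KO and 0.14 in WT. Their summed signal was 24910 to 25730 in Nfkb1KO-O3, against 26240 to 28160 in Nfkb1KO-Air, and 25440 to 26420 in WT-O3, against 23570 to 24200 in WT-Air. The O3 arrays lay below the air arrays in Nfkb1KO and above them in WT. In air all 8 differences, Nfkb1KO over WT, were positive (median 0.19, 2 at an unadjusted p under 0.05), and all 8 interactions were negative (median -0.20, 2 at an unadjusted p under 0.05), with 0 called by limma for either. The medians of the 10 genes were 0.18 in air and -0.41 for the interaction. Alveolar type I markers had 1 call in each genotype, Hopx (0.35 ± 0.06 in Nfkb1KO and 0.32 ± 0.06 in WT), and the type II and club cell markers had 0 by limma. At an unadjusted p under 0.05 there were 5 of 8 type I markers in Nfkb1KO (list median 0.25) and 2 of 8 in WT (list median 0.12). For type II markers there were 4 in each genotype, and for club cell markers 1 in Nfkb1KO and 0 in WT. Of 9 ciliated cell markers 6 fell in Nfkb1KO (median -0.96) and 3 in WT (Ccdc39, Dnali1 and Tppp3; median -0.58), with summed signals of 11600 to 16760 in Nfkb1KO-O3, against 21130 to 28890 in Nfkb1KO-Air, and of 12010 to 16620 in WT-O3, against 18630 to 22390 in WT-Air. Basal cell markers had 0 of 7 and oesophageal-type squamous markers 0 of 9 calls by limma in either genotype. At an unadjusted p under 0.05 there were 0 basal markers in Nfkb1KO and 1 in WT, and 2 oesophageal-type markers in Nfkb1KO and 0 in WT. Krt14 lay at or below the lower limit in some arrays.

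Mesothelial cells, which also carry simple keratins, lost signal in WT. Of 10 mesothelial markers 5 fell in WT, Bnc1, Gpm6a, Lrrn4, Rspo1 and Upk3b (list median -0.93), and 0 in Nfkb1KO by limma (median -0.04), where 0 had an unadjusted p under 0.05. Their summed signal was 12660 to 15290 in Nfkb1KO-O3, against 12210 to 17670 in Nfkb1KO-Air, and 9335 to 12360 in WT-O3, against 17210 to 22390 in WT-Air. In air, 7 of the 10 had an unadjusted p under 0.05 between genotypes, with 0 called by limma and a median difference of -0.54 in Nfkb1KO-Air over WT-Air. The part of the cell mixture in the changes of the 10 genes was not tested.

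**Figure D5:**
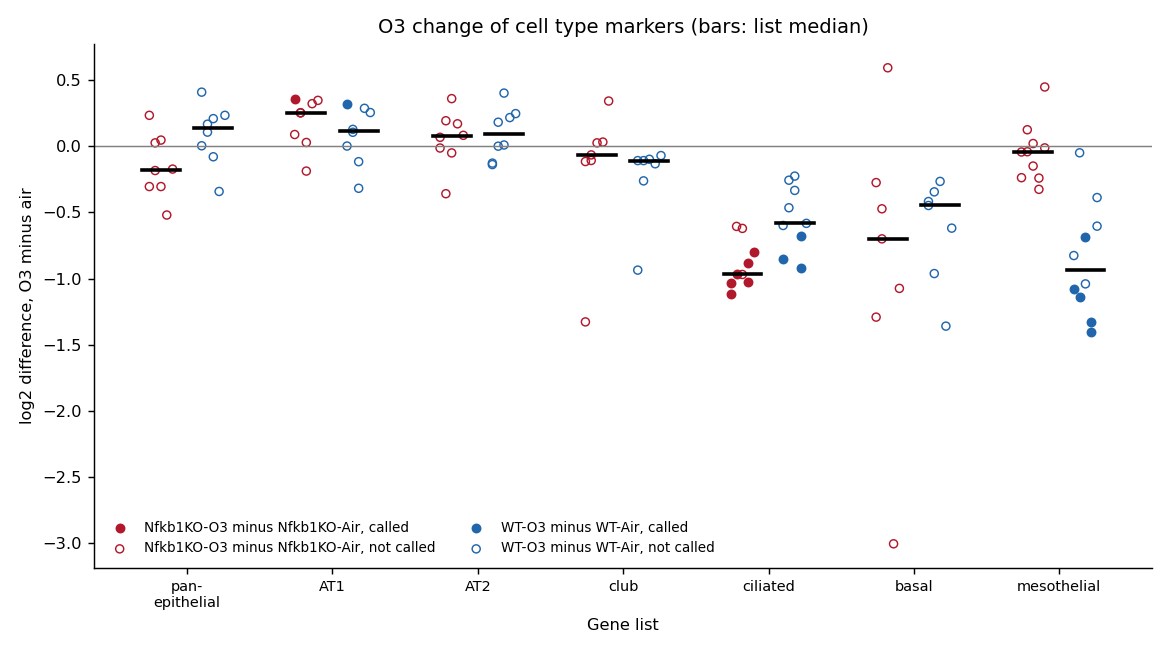
Log2 difference, O3 minus air (vertical axis), of cell type markers in Nfkb1KO and in WT. Points are genes (filled where the adjusted p was under 0.05) and bars are list medians, which are -0.96 in Nfkb1KO and -0.58 in WT for ciliated cells and -0.04 in Nfkb1KO and -0.93 in WT for mesothelial cells.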

How the data were processed

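Lung RNA was measured on 12 Affymetrix Mouse Genome 430 2.0 arrays, with groups taken from the sample labels. The deposited intensity values were MAS5 signals, which the authors computed in Affymetrix Expression Console (versions not given in the sources used here) and scaled to a trimmed mean of 500 per array. They came without detection calls, and precision is limited by how many arrays there were. Of the 45101 probe sets, 64 control probe sets were set aside. Signals under 1 were set to 1 (0.661% of values), log2 transformed and quantile normalised. Probe sets were kept where 1 or more arrays exceeded their 20th percentile (42559) and the annotation gave 1 gene symbol, and the one with the highest mean represented a gene.

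A model with 1 mean per group was fitted with limma 3.58.1 in R 4.3.3 (variance trend, 12.55 degrees of freedom including the prior), p-values were adjusted by Benjamini-Hochberg over 17569 genes, and genes were called at an adjusted p under 0.05. Errors of differences are standard errors, and n is 3 arrays per group. No exact test of 3 against 3 arrays goes below p = 0.1. The procedure was tested on simulated data. The members and lists were chosen with earlier results of these data known. All 10 members are named, for the genotype comparisons those with an unadjusted p under 0.05, from each list up to 4 called genes with the smallest p for an O3 comparison, and 3 nearest neighbours for Sprr1a and Krt8. The single cell type markers, Ecm1, Ccnd1, Sox4, Cldn2 in air and the cornified envelope genes at the lower limit were named after their values were seen. Alternatives changed the scaling, filter, probe set choice, model and arrays. Animal details are from the methods of the study.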

Additional observations from a re-analysis of the deposited data

How the results depend on the processing

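Of 752 values of 30 named results under alternatives, 706 kept their direction and side of the threshold, 24 lost a call, 21 gained one and 1 reversed. Members called for O3 in WT numbered 9, and 5 with arrays centred on their medians, where 87 genes in all were called against 949. With 1 array left out the count was 6 to 9 for O3 in Nfkb1KO and 9 to 10 for O3 in WT. Members called for genotype after O3 numbered 1. The count was 0 with the deposited scaling only, without the variance trend or with the replicate number as a block (Sprr1a adjusted p = 0.0609), 2 with array weights, and 0 to 1 with 1 array left out. Sprr1a lost its call there in 10 of 25 alternatives, with log2 differences of -1.44 to -1.31 and adjusted p of 0.000802 to 0.181. A two-way model with genotype and exposure but no interaction gives another quantity, the genotype effect over both exposures. There 0 members were called and Sprr1a was at -0.37. The study names a two-way ANOVA without its terms, so this fit may differ from it. The study lists Sprr1a among the genes lower in Nfkb1-deficient lungs after O3. For genotype in air the count was 1, Krt18, with the methods' t-test before adjustment. The Krt18 difference in air reversed to -0.10 with arrays centred on their medians, which moved the median of all genes to 0.25 for O3 in Nfkb1KO, -0.20 for genotype in air and 0.25 for the interaction. These comparisons all hold Nfkb1KO-Air replicate 1, which had a median deposited signal of 180.1 against 99.14 to 121.2 in the other 11 arrays. The part of that array in these shifts was not tested. Replicate numbers did not pair the arrays (r of -0.17 to 0.11 over 18 pairs of same-numbered arrays, 1 above 0.1), and the block moved no other count of members called by over 1.5 times. Without detection calls, low signals such as those of Sfn in air are limited by the background.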
